A study of Mus musculus with 24 samples.

Results

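*Otx1*, *Otx2*, *Gbx1*, *Gbx2*, *En1*, *En2*, *Lmx1a*, *Lmx1b* and *Dmbx1* encode homeodomain transcription factors that pattern the midbrain and hindbrain of the embryo. They were taken by symbol from a table of normalised read counts in mouse embryonic stem cells (ESCs), and make up 9 of its 19409 gene symbols. The table gives 1 row per transcript, 20633 in all. The 9 symbols have 11 rows, because *Otx2* has 3, and for *Otx2* the row with the largest sum over all libraries was used. All 9 genes had at least 10 reads in at least 3 libraries, as did 16940 of the rows, which were the ones tested.

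The values come from calibrated RNA-seq (cRNA-seq), in which *Drosophila* SG4 cells were added to the ESCs before RNA extraction so that each library could be scaled to cell number. Both ESC lines derive from E14 cells, each is 1 clone, and both carry ERT2-Cre at *Rosa26* and were grown in serum with LIF on gelatin. The PRC1CKO line (clone B9) has no RING1A (*Ring1a*-/-) and floxed *Ring1b* alleles, so that 4-hydroxytamoxifen (OHT) also removes RING1B and with it PRC1. In the PRC1CPM line (clone 41) RING1A carries the inactivating changes I50A and D53K, and OHT replaces wild-type RING1B with a form carrying I53A and D56K, so that PRC1 remains but cannot ubiquitylate histone H2A. Cells of each line were either left untreated or grown with OHT (800 nM) for 72 h. With 3 replicates of each of the 4 conditions there are 12 libraries, which hold 14668159 to 27016156 reads on genes. Untreated cells of both lines therefore already lack active RING1A, and the effects of OHT and of Cre cannot be told apart from those of losing PRC1, since no OHT-treated cells with intact PRC1 were among the groups. The labels number the replicates without naming separate cultures, so that the p-values measure the spread between these libraries, which the study calls biological replicates.

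*Ring1* and *Rnf2*, which encode RING1A and RING1B, were checked against the labels as far as counts over whole gene bodies allow. In PRC1CKO cells *Rnf2* stood at 1526 ± 201 (SD, n = 3) normalised reads before and 1546 ± 50.8 after treatment. The values in PRC1CPM cells were 1696 ± 140 and 1511 ± 215. Only a small part of the gene is altered by Cre, and counts over 31.4 kb do not check its loss. Reads on *Ring1* were also found in every library, with 228 ± 76.3 in untreated PRC1CKO and 162 ± 32.2 in untreated PRC1CPM cells, so that counts over the gene body do not check the RING1A genotypes either.

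PRC1 is a Polycomb complex that ubiquitylates histone H2A and keeps developmental genes silent, among them many homeobox genes with CpG-rich promoters. In the neural plate, OTX2 marks the forebrain and midbrain and GBX2 the anterior hindbrain, and their mutual repression places the midbrain-hindbrain boundary. Cells at this boundary, the isthmic organiser, secrete FGF8 and WNT1, and EN1 and EN2 are expressed on both sides of it. LMX1A and LMX1B specify the roof plate and the progenitors of midbrain dopaminergic neurons, and DMBX1 is expressed in the diencephalon and midbrain. OTX2 and GBX2 are also expressed in ESCs, where OTX2 promotes the step from the naive to the formative state and GBX2 supports naive self-renewal.

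After OHT treatment, 6 of the 9 genes rose in PRC1CKO cells, *Otx2* fell, and *Gbx1* and *Gbx2* were not called. The 6 were *Otx1*, *En1*, *Lmx1a*, *Lmx1b*, *Dmbx1* and *En2*. The calls were the same for all 9 genes in PRC1CPM cells. A call required a fold change of more than 1.5 together with adjusted p below 0.05, from limma on log2(normalised read count + 1) with Benjamini-Hochberg adjustment over all rows tested, and all log2 fold changes below are on this scale, where the change of genes with few reads depends on the added 1. Over all rows tested, 16.5% were called higher and 3.09% lower in PRC1CKO cells, and 13.1% higher and 1.4% lower in PRC1CPM cells. With TMM in place of the spike-in scale, 2845 rows were higher and 1133 lower in PRC1CKO cells, against 2787 and 524, and 2396 and 595 in PRC1CPM cells, against 2226 and 237. Without the gDNA-seq correction, 3428 rows were higher and 68 lower in PRC1CPM cells, and 1435 were higher without OHT-treated PRC1CPM replicate 1 and 121 lower without OHT-treated PRC1CPM replicate 2. The 6 increases and the decrease of *Otx2* were called on both scales. The log2 fold changes of the 9 genes ranged from -1.01 to 5.02 with a median of 1.76 in PRC1CKO cells, and from -1.20 to 2.87 with a median of 1.47 in PRC1CPM cells, where the medians of all rows were 0.12 and 0.10. In each line, the untreated and OHT-treated libraries of the 7 genes called did not overlap, while those of *Gbx1* and *Gbx2* did. The share of all rows without such overlap is not given here, so this describes single genes and not the 9 as a group. Untreated PRC1CKO replicate 1, which had the lowest size factor (0.671), weighed on the counts of all rows, since 3729 were higher and 325 lower in PRC1CKO cells without it. These are bulk libraries, in which more cells expressing a gene and more RNA per cell cannot be told apart.

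**Figure D1:**
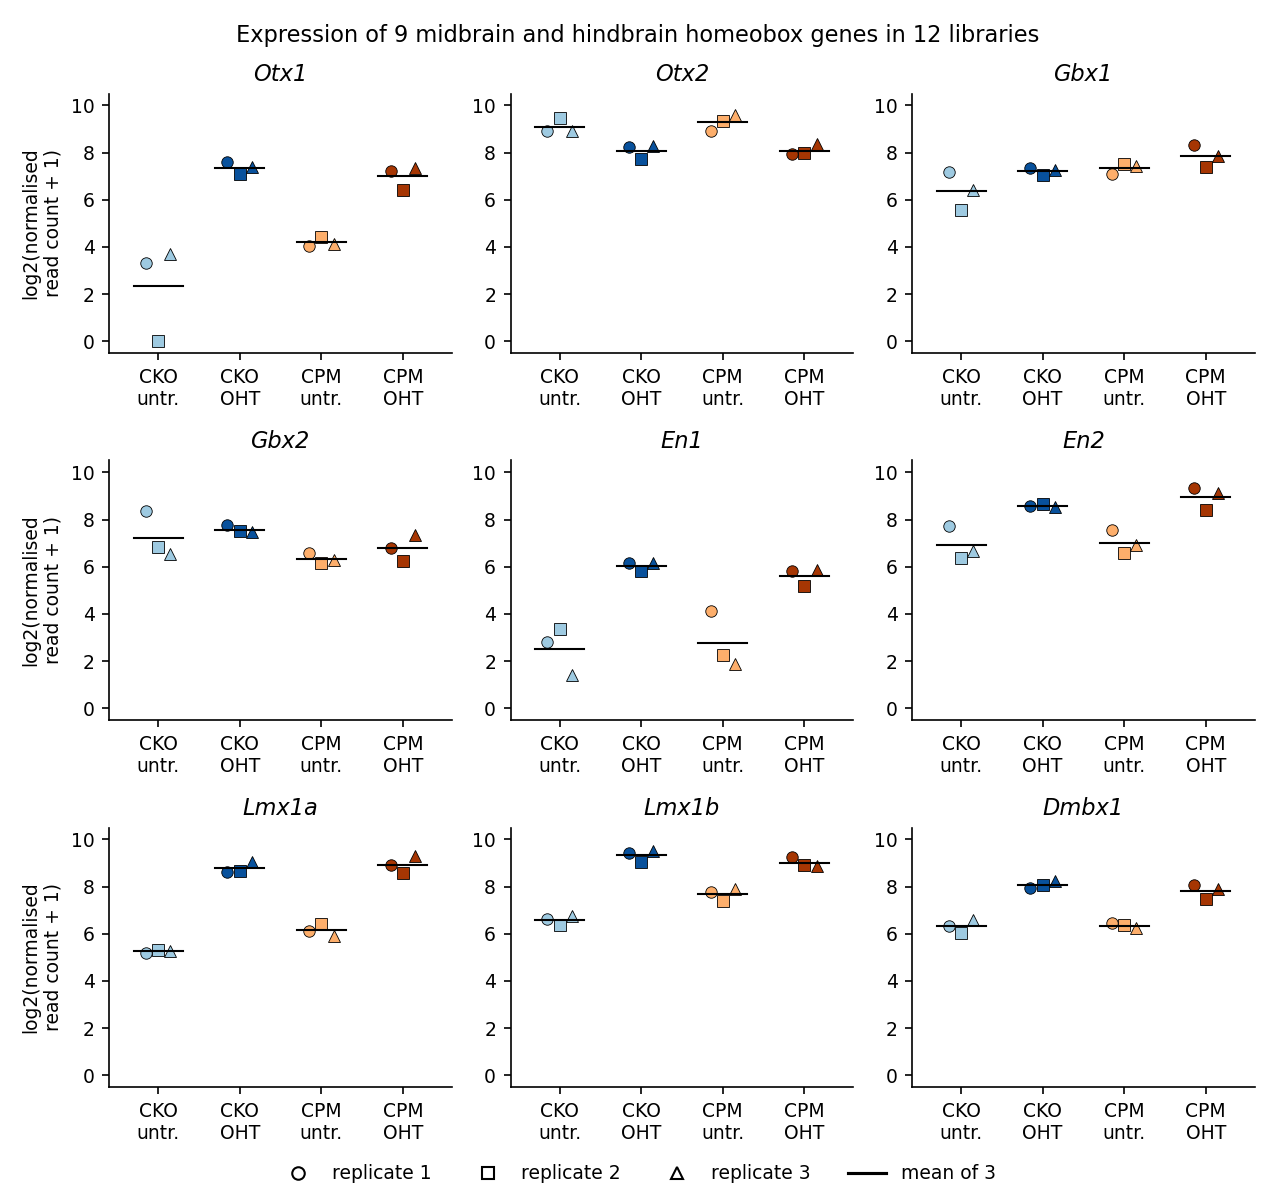
Log2(normalised read count + 1) of each gene (y axis) in the 3 libraries of each condition (x axis, CKO for PRC1CKO and CPM for PRC1CPM, untr. for untreated), with 1 symbol per replicate number and a line at the mean. *Otx1*, *En1*, *Lmx1a*, *Lmx1b*, *Dmbx1* and *En2* lie higher in every OHT-treated than in every untreated library of the same line, *Otx2* lies lower, and *Gbx1* and *Gbx2* overlap.

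**Figure D2:**
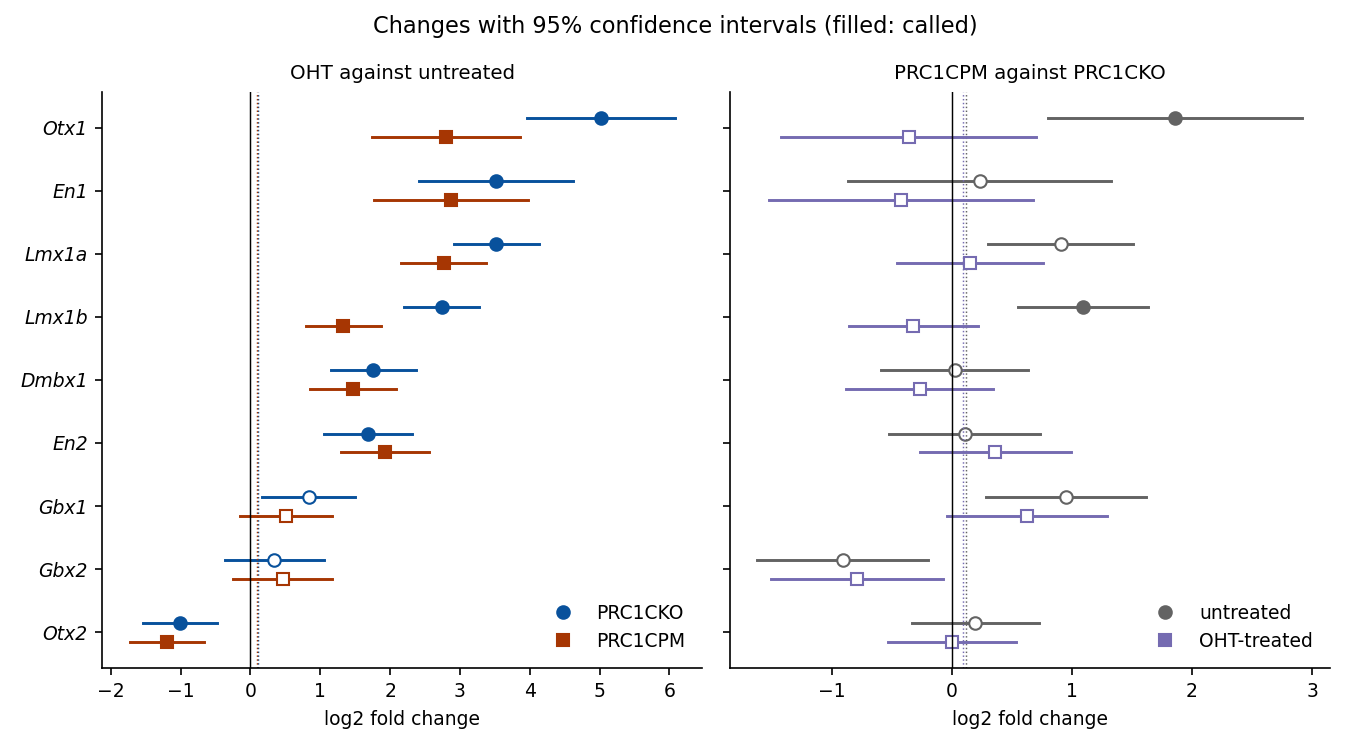
Log2 fold change (x axis) of each gene with its 95% confidence interval from limma, for OHT-treated against untreated cells of each line (left) and for PRC1CPM against PRC1CKO cells (right), where filled symbols passed the threshold and dotted lines mark the median of all rows tested. The changes run from 5.02 for *Otx1* to -1.01 for *Otx2* in PRC1CKO cells, and between the lines only *Otx1* and *Lmx1b* in untreated cells were called.

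The 9 genes lie on chromosomes 1, 2, 4, 5, 11 and 14 of GRCm38, and no row of another gene in the table overlaps any of them. Since reads were counted over introns and exons, the share of the counted region that is exon differs widely. It is 66.1% of 3.21 kb for *Gbx2* and 2.1% of 159 kb for *Lmx1a*. RefSeq promoters were matched for 6 of the 9 genes (*Gbx2*, *En1*, *Lmx1a*, *Lmx1b*, *Dmbx1* and *Otx2*, which has 4 start sites), and those of *Otx1*, *En2* and *Gbx1* are not shown. The 250 bases before the start site are printed here for 3 genes that rose in both lines, for *Gbx2*, which was not called, and for the start of the *Otx2* row used here. They are written 5′ to 3′ in the direction of the gene, from RefSeq on GRCm38.p6, with each CpG in capitals.
En1, chr1:120602237-120602486, plus strand: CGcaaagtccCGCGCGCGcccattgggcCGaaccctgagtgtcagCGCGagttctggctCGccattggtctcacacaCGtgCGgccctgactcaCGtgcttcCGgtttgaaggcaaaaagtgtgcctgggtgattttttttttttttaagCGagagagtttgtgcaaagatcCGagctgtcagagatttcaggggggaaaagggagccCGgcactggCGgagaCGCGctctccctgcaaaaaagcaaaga
Lmx1a, chr1:167689308-167689557, plus strand: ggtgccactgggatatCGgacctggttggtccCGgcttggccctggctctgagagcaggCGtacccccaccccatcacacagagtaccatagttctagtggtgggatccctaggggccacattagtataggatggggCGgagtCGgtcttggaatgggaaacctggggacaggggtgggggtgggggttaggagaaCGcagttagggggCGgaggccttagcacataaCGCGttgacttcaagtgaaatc
Dmbx1, chr4:115939927-115940176, minus strand: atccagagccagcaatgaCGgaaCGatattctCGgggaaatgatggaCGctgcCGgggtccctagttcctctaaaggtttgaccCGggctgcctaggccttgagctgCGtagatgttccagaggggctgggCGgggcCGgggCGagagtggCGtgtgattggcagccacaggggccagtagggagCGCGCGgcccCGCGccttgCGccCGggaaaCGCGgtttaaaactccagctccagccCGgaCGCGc
Gbx2, chr1:89931177-89931426, minus strand: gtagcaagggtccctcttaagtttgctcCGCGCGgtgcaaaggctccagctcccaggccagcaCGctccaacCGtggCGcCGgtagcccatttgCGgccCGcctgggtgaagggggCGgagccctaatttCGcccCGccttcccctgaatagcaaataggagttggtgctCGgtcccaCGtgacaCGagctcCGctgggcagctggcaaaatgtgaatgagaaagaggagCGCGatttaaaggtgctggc
Otx2, chr14:48667645-48667894, minus strand: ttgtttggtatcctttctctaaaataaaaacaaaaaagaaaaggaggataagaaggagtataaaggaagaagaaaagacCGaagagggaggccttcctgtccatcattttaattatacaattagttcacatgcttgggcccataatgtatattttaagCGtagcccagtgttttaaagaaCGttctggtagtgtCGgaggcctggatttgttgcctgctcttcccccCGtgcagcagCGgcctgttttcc

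The capitals are dense in *Dmbx1*, with 23 CpGs, *En1* with 19 and *Gbx2* with 18, and fewer in *Lmx1a* with 9 and *Otx2* with 6. The *Lmx1b* promoter, whose start lies 587 bases from that of the deposited row, holds 19. The median over 32851 RefSeq promoters of 27025 genes is 6, so that *Otx2* lies at the median, with fewer CpGs in 49.6% of all promoters. *Lmx1a* lies above the median, with fewer in 59.7%, and *Dmbx1* near the top, with fewer in 86.7%. The other *Otx2* start sites have 8, 14 and 9. *Gbx2*, which was not called, has nearly as many CpGs as *En1*, which rose. On either strand, TAATCC, the site that OTX proteins bind, was found in 1 of the 9 windows, that of an *Otx2* start, against 6.25% of all promoters. TAATTA, a homeodomain core that shares the letters TAAT with it, was found in 2 windows, both of *Otx2*, against 4.84%. CACGTG, an E-box, was found in the windows of *Gbx2* and *En1*, against 6.02%.

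*Otx1* and *Otx2* moved in opposite directions. *Otx1* (NM_011023) lies on chromosome 11 from 21994764 to 22001651 on the minus strand. In untreated PRC1CKO cells its normalised read counts were 8.94, 0 and 11.8 in replicates 1, 2 and 3, from 6, 0 and 14 reads. They were 192, 135 and 164 after OHT treatment. In PRC1CPM cells they were 15.3, 20.7 and 16.3 before and 146, 84.3 and 163 after treatment. *Otx1* was thus close to the limit of detection before treatment, with 0 reads in 1 library, where 3 reads would be 2.31, and every treated library was higher than every untreated one. Its log2 fold change was 5.02 (SE 0.53, limma adjusted p = 6.91e-11) in PRC1CKO and 2.80 (SE 0.53, limma adjusted p = 6.97e-05) in PRC1CPM cells. Without untreated PRC1CKO replicate 2, the library with no read, the change in PRC1CKO cells was 3.85 (limma adjusted p = 8.43e-15). It was 5.69 without untreated replicate 3, and with a pseudocount of 8 it was 3.61.

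*Otx2* (NM_001286481), on chromosome 14 from 48657677 to 48667644 on the minus strand, was the gene of the 9 with the highest normalised read count in untreated cells. Its counts were 477, 703 and 478 in untreated and 300.1, 209 and 313 in OHT-treated PRC1CKO cells. In PRC1CPM cells they were 476, 654 and 777 before and 241, 251 and 326 after treatment. All 6 treated libraries were below all 6 untreated ones. The log2 fold change was -1.01 (SE 0.26, limma adjusted p = 0.00326) in PRC1CKO cells and -1.20 (SE 0.26, limma adjusted p = 0.000591) in PRC1CPM cells, or 2.01-fold and 2.30-fold lower. The fall in PRC1CKO cells was -0.82 and no longer called without OHT replicate 2 (limma adjusted p = 0.0527). *Otx2os1*, the antisense transcript that starts 1644 bp away, was not called (log2 fold change 0.35 and -0.29 in PRC1CKO and PRC1CPM cells).

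The other *Otx2* rows, NM_001286483 and NM_144841, end at the same base and begin farther downstream, so that all 3 share most of their reads. They fell by 1.11 and 1.21 on the log2 scale in PRC1CKO cells and by 1.25 and 1.29 in PRC1CPM cells. The reads of the longest row that the shortest leaves out fall in its first 4772 bp, from 48662873 to 48667644, and this part was looked at after these values were seen. A read that also reaches the shorter row is not among them. They made up 10.3%, 7.01% and 3.89% of the *Otx2* reads in untreated and 21.1%, 16.8% and 20.3% in OHT-treated PRC1CKO libraries. In PRC1CPM cells the shares were 4.84%, 8.65% and 6.28% before and 12.8%, 13.6% and 10.4% after treatment. The share was higher in every treated library (exact permutation test, two-sided, p = 0.1 in each line, the smallest that 3 against 3 allows). The normalised read count of this part was 39.0 ± 17.7 (SD, n = 3) before and 54.0 ± 16.3 after treatment in PRC1CKO cells (exact p = 0.3), and 42.8 ± 17.6 and 33.0 ± 1.79 in PRC1CPM cells (exact p = 0.4). With 3 against 3, these values do not show whether the level of the 5′ part changed, and the higher share restates that the longest row fell less than the shortest.

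*Gbx1* and *Gbx2* were not called in either line. *Gbx1* (NM_015739), on chromosome 5 from 24504426 to 24526848 on the minus strand, had normalised read counts of 143, 46.9 and 84.6 in untreated and 164, 130 and 154 in OHT-treated PRC1CKO cells. PRC1CPM cells had 137, 181 and 169 before and 314, 167 and 232 after treatment. The untreated and treated libraries overlapped in both lines. The log2 fold change was 0.83 (95% confidence interval 0.17 to 1.5, limma adjusted p = 0.0707) in PRC1CKO and 0.51 (interval -0.155 to 1.17, limma adjusted p = 0.418) in PRC1CPM cells. In PRC1CKO cells it was called, at 1.22, without untreated replicate 1 (limma adjusted p = 0.00311), and at 0.83 without untreated PRC1CPM replicate 1 or 2 (limma adjusted p = 0.0437 and 0.0477). On the TMM scale it was called as well (0.72, limma adjusted p = 0.0388), and without untreated PRC1CKO replicate 2 it was 0.43 (limma adjusted p = 0.505). With the replicate number as a block it was also called (0.83, limma adjusted p = 0.000478), where 1 same-number pair of PRC1CKO libraries correlated weakly (r 0.0988).

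*Gbx2* (NM_010262), on chromosome 1 from 89927962 to 89931176 on the minus strand, had counts of 323, 112 and 92.2 in untreated and 215, 180 and 176 in OHT-treated PRC1CKO cells. In PRC1CPM cells the counts were 94.6, 69.7 and 75.9 before and 109, 75.0 and 161 after treatment. Untreated PRC1CKO replicate 1 was higher than every other library, and the other untreated libraries of that line were lower than the treated ones. The log2 fold change was 0.34 (interval -0.37 to 1.05, limma adjusted p = 0.619) in PRC1CKO and 0.46 (interval -0.25 to 1.17, limma adjusted p = 0.537) in PRC1CPM cells, intervals that include both no change and a doubling. The PRC1CKO value rested on single libraries, at 0.89 and called without untreated replicate 1 (limma adjusted p = 0.0443) and -0.0065 without untreated replicate 3. The PRC1CPM value was 0.19 without OHT replicate 3 and 0.73 without OHT replicate 2, not called in either case.

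*En1* and *En2* both rose. *En1* (NM_010133), on chromosome 1 from 120602487 to 120607991 on the plus strand, had the fewest reads of the 9 genes after treatment. Its normalised read counts were 5.96, 9.23 and 1.69 in untreated PRC1CKO cells, from 4, 12 and 2 reads, and 71.4, 55.5 and 69.8 after OHT treatment. In PRC1CPM cells they were 16.6, 3.77 and 2.71 before, from 13, 4 and 2 reads, and 56.0, 35.6 and 57.0 after treatment. Every treated library was above every untreated one, although the untreated values carry large counting error. The log2 fold change was 3.52 (SE 0.55, limma adjusted p = 1.06e-06) in PRC1CKO and 2.87 (SE 0.55, limma adjusted p = 8.36e-05) in PRC1CPM cells. The latter was 3.55 without untreated PRC1CPM replicate 1.

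*En2* (NM_010134), on chromosome 5 from 28165696 to 28172166 on the plus strand, was already well expressed. Its counts were 209, 81.6 and 99.8 in untreated and 379, 404 and 369 in OHT-treated PRC1CKO cells. PRC1CPM cells had 189, 94.2 and 119 before and 651, 336 and 551 after treatment. The groups did not overlap in either line, and untreated replicate 1 was the highest untreated library in both. *En2* rose 3.20-fold in PRC1CKO (log2 fold change 1.68, SE 0.31, limma adjusted p = 3.33e-05) and 3.82-fold in PRC1CPM cells (1.93, SE 0.31, limma adjusted p = 5.04e-06). It was the 1 gene of the 6 with a larger estimate in PRC1CPM cells, and the difference was not called (log2 0.26, interval -0.63 to 1.15).

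*Lmx1a* and *Lmx1b*, which encode LIM homeodomain factors, both rose. *Lmx1a* (NM_033652) lies on chromosome 1 from 167689558 to 167848733 on the plus strand. Its normalised read counts were 35.7, 38.5 and 37.2 in untreated and 394, 400 and 530 in OHT-treated PRC1CKO cells. In PRC1CPM cells they were 69.0, 84.8 and 59.6 before and 486, 376 and 625 after treatment. The lowest treated library was thus several-fold above the highest untreated one in both lines. It rose 11.5-fold in PRC1CKO (log2 fold change 3.52, SE 0.30, limma adjusted p = 1.56e-13) and 6.81-fold in PRC1CPM cells (2.77, SE 0.30, limma adjusted p = 5.75e-10).

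*Lmx1b* (NM_010725), on chromosome 2 from 33564536 to 33640511 on the minus strand, had counts of 98.3, 82.3 and 107 in untreated and 691, 524 and 731 in OHT-treated PRC1CKO cells. In PRC1CPM cells the counts were 219, 165 and 236 before and 606, 480 and 468 after treatment. The groups did not overlap in either line, and the untreated PRC1CPM libraries were all above the untreated PRC1CKO ones. *Lmx1b* rose 6.67-fold in PRC1CKO (log2 fold change 2.74, SE 0.27, limma adjusted p = 1.03e-11) and 2.51-fold in PRC1CPM cells (1.33, SE 0.27, limma adjusted p = 0.000192). The noncoding transcript *C130021I20Rik* begins 682 bp from the *Lmx1b* row on the other strand. It rose from 3.1 to 84.1 in PRC1CKO and from 8.63 to 58.3 in PRC1CPM cells (mean normalised read counts, log2 fold changes 4.44 and 2.77).

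*Dmbx1* (NM_001025567), on chromosome 4 from 115915119 to 115939926 on the minus strand, had counts of 80.4, 64.6 and 94.7 in untreated and 245, 263 and 304 in OHT-treated PRC1CKO cells. PRC1CPM cells had 85.7, 81.0 and 74.6 before and 267, 179 and 234 after treatment. Both lines started from like levels, 79.9 ± 15.0 and 80.4 ± 5.58 (SD, n = 3), and no treated library overlapped an untreated one. The increase was 3.38-fold in PRC1CKO (log2 fold change 1.76, SE 0.30, limma adjusted p = 8.43e-06) and 2.76-fold in PRC1CPM cells (1.47, SE 0.30, limma adjusted p = 0.000265).

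The comparison of untreated PRC1CPM with untreated PRC1CKO cells asks whether the lines start from the same levels. Here 2 of the 9 genes were higher in PRC1CPM cells, none was lower, and 2.21% of all rows were called higher and 0.478% lower. Without the gDNA-seq correction this balance turned, with 130 rows higher and 148 lower. *Lmx1b* was 2.13-fold higher (log2 fold change 1.09, SE 0.27, limma adjusted p = 0.0139) and *Otx1* 3.64-fold higher (1.86, SE 0.53, limma adjusted p = 0.0390). The difference in *Otx1* was 0.70 and not called without untreated PRC1CKO replicate 2 (limma adjusted p = 0.775), which had no *Otx1* read, and edgeR and DESeq2 did not call it (adjusted p = 0.193 and 0.127). It was 2.54 without untreated PRC1CKO replicate 3, and it was not called without untreated PRC1CPM replicate 3 or OHT-treated PRC1CPM replicate 2 (limma adjusted p = 0.0629 and 0.0662). *Otx1* lies on chromosome 11, whose 1380 tested rows had a median difference of 0.45 between the untreated lines, against 0.12 over all rows, and the part of this in the result was not tested. The difference in *Lmx1b* was not called without untreated PRC1CKO replicate 2 (0.98, limma adjusted p = 0.0857) or without untreated PRC1CPM replicate 1 or 3 (1.04 and 0.985, limma adjusted p = 0.0512 and 0.0979). Nor was it called without the gDNA-seq correction (0.81, limma adjusted p = 0.249).

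Replicate numbers paired the libraries in the comparisons between lines. With the replicate number as a block, *Gbx1* (log2 fold change 0.95, limma adjusted p = 0.00018) and *Lmx1a* (0.91, limma adjusted p = 0.00032) were also called higher in untreated PRC1CPM cells and *Gbx2* lower (-0.91, limma adjusted p = 0.000819). Without the block their limma adjusted p were 0.115, 0.0910 and 0.188. Without untreated PRC1CKO replicate 1, 1491 rows were higher and *Gbx1* was called as well (1.34), while *Gbx2* was at -0.35 (limma adjusted p = 0.519). Without untreated PRC1CKO replicate 2, *Gbx1* was at 0.55 (limma adjusted p = 0.764). The block raised the calls over all rows from 374 to 1631 higher and from 81 to 253 lower. With TMM, 745 rows were higher and 305 lower, and the calls among the 9 genes were *Lmx1b*, *Gbx1* and *Lmx1a* higher and *Gbx2* lower. DESeq2 called *Lmx1a* higher too (0.94, adjusted p = 0.0433).

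Between the OHT-treated lines, PRC1CPM with inactive PRC1 and PRC1CKO without PRC1, none of the 9 genes was called by limma, edgeR or DESeq2. Each line is 1 clone, so that an effect of inactive PRC1 against no PRC1 cannot be told apart from a difference between clones. At an unadjusted p under 0.05 in limma, 1 of the 9 passed, *Gbx2*, as did 1862 of the 16940 rows. Over all rows, 1.25% were called higher and 0.218% lower in PRC1CPM cells. These counts, 212 and 37, rested on single libraries, with 82 rows higher without OHT-treated PRC1CPM replicate 1 and 17 lower without OHT-treated PRC1CKO replicate 2, and 399 and 78 without untreated PRC1CKO replicate 1. The 6 genes that rose had log2 differences of -0.36 (interval -1.42 to 0.70) for *Otx1*, -0.42 (-1.52 to 0.68) for *En1*, 0.36 (-0.27 to 0.99) for *En2*, 0.15 (-0.45 to 0.76) for *Lmx1a*, -0.32 (-0.86 to 0.22) for *Lmx1b* and -0.27 (-0.88 to 0.34) for *Dmbx1*. Each of these intervals includes no difference, and those of *Otx1* and *En1* reach beyond 1 on the log2 scale. The median difference of all rows on chromosome 11, which holds *Otx1*, was 0.42 here, and that on chromosome 1, which holds *Gbx2*, *En1* and *Lmx1a*, was -0.16, against 0.097 over all rows, and the part of this in the values was not tested. The levels of *Otx2* were nearly equal, 274 ± 56.6 and 273 ± 46.7 (SD, n = 3). With the replicate block, *Gbx1* was called higher in PRC1CPM cells (0.63, limma adjusted p = 0.0283, 0.495 without the block) and *Gbx2* lower (-0.79, limma adjusted p = 0.00619, 0.366 without). The block gave 1131 rows higher and 232 lower, against 212 and 37, and TMM gave 524 and 261. In treated cells, all 3 PRC1CPM libraries were above the PRC1CKO ones for *Gbx1* and below them for *Gbx2*.

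The interaction of line and treatment, which tests whether the change itself differed, was called for none of the 9 genes by edgeR or by limma without a replicate block and for 0.0236% of all rows by limma at an adjusted p under 0.05. These 4 rows, all lower, became 28 without untreated PRC1CKO replicate 1, 1 without OHT-treated PRC1CKO replicate 1 or OHT-treated PRC1CPM replicate 2 or 3, 15 with DESeq2 and 14 with TMM. The estimates for *Lmx1b* and *Otx1* were the farthest below 0. *Lmx1b* changed by 1.41 less in PRC1CPM cells (interval of the difference -2.17 to -0.64, limma adjusted p = 0.432) and DESeq2 called it (-1.43, adjusted p = 0.0276). *Otx1* differed by -2.22 (interval -3.72 to -0.72, limma adjusted p = 0.821), by -1.05 without untreated PRC1CKO replicate 2 and by -2.90 without replicate 3. With the replicate number as a block, limma called both *Lmx1b* (adjusted p = 1.28e-05) and *Otx1* (adjusted p = 0.000863), with 78 of all rows higher and 246 lower. In that fit 1 same-number pair of PRC1CKO libraries correlated weakly (r 0.0988). Both genes had higher levels in untreated PRC1CPM cells, and their levels after treatment were not called different. These were the 2 of the 9 at an unadjusted p under 0.05, as were 497 of the 16940 rows.

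The ratio between paralogues in a library does not depend on how the library was scaled, up to the pseudocount of 1. The log2 ratio of *Otx1* to *Otx2* was -5.59, -9.46 and -5.22 in untreated PRC1CKO libraries and -0.64, -0.63 and -0.93 after treatment, so that *Otx1* stayed below *Otx2* in every library, by less after treatment. In PRC1CPM cells it was -4.87, -4.91 and -5.49 before and -0.72, -1.56 and -0.996 after treatment. The mean ratio moved by 6.02 and 4.00, the most of the 4 pairs. In PRC1CKO cells it moved by 4.67 without untreated replicate 2, whose ratio the pseudocount sets, and by 6.79 without untreated replicate 3. The *Lmx1a* to *Lmx1b* ratio moved by 0.79 in PRC1CKO and 1.44 in PRC1CPM cells, without overlap between treated and untreated libraries. The *En1* to *En2* ratio moved by 1.84 in PRC1CKO cells (2.53 without untreated replicate 2), without overlap, and by 0.93 in PRC1CPM cells, with overlap. The *Gbx1* to *Gbx2* ratio moved by 0.49 and 0.049, with overlap in both lines. An exact permutation test (two-sided) gave p = 0.1, the smallest possible with 3 against 3, for the 5 comparisons without overlap, and the adjusted p over the 8 comparisons was 0.16. For the others, the exact permutation p was 0.2 (*En1* to *En2*, PRC1CPM), 0.4 (*Gbx1* to *Gbx2*, PRC1CKO) and 1 (*Gbx1* to *Gbx2*, PRC1CPM), or 0.267, 0.457 and 1 adjusted.

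**Figure D3:**
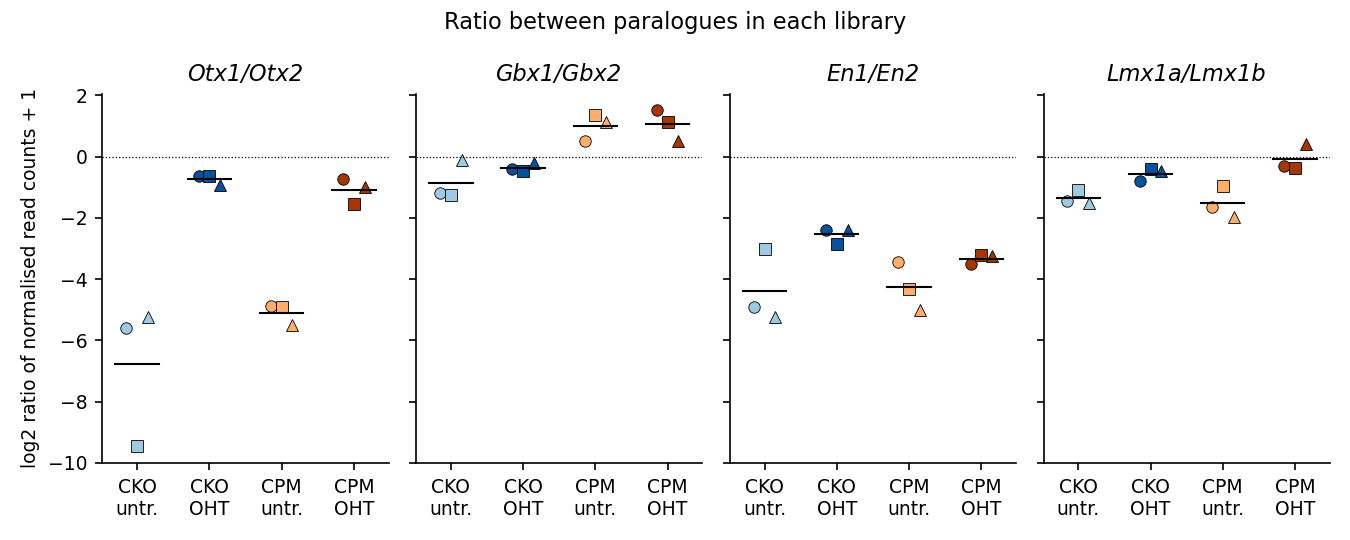
Log2 ratio of the normalised read counts + 1 of each pair of paralogues (y axis) in the 3 libraries of each condition (x axis), with 1 symbol per replicate number, a line at the mean and a dotted line at equal counts. The *Otx1* to *Otx2* ratio rises from a mean of -6.76 to -0.73 in PRC1CKO and from -5.09 to -1.09 in PRC1CPM cells, and the *Gbx1* to *Gbx2* ratio overlaps between treated and untreated libraries.

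Levels of different genes were compared as normalised read counts per kb of gene body. This scale places genes that are mostly intron lower, since introns hold few reads of spliced RNA. In untreated PRC1CKO cells *Otx2* (55.4 ± 13.1 per kb, SD, n = 3), *Gbx2* (54.7 ± 39.8) and *En2* (20.1 ± 10.6) stood highest, with overlap between neighbours in this order. *Gbx1* (4.08 ± 2.16) and *Dmbx1* (3.22 ± 0.61) followed, apart from *En2* but not from each other. *Lmx1b* (1.26 ± 0.17), *En1* (1.02 ± 0.69), *Otx1* (1.01 ± 0.90) and *Lmx1a* (0.23 ± 0.0086) were lowest and overlapped from neighbour to neighbour. After OHT treatment the order in PRC1CKO cells was *En2* (59.4 ± 2.83), *Gbx2* (59.3 ± 6.64), *Otx2* (27.5 ± 5.68), *Otx1* (23.8 ± 4.10), *En1* (11.9 ± 1.59), *Dmbx1* (10.9 ± 1.21), *Lmx1b* (8.54 ± 1.45), *Gbx1* (6.65 ± 0.78) and *Lmx1a* (2.77 ± 0.48). *En2* thus stood first and *Otx2* below *Gbx2*. In this order *En2* and *Gbx2*, *Otx2* and *Otx1*, *En1* and *Dmbx1*, and *Lmx1b* and *Gbx1* overlapped.

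In untreated PRC1CPM cells *Otx2* stood first at 63.8 ± 15.2 per kb (SD, n = 3) and did not overlap with *Gbx2* (24.9 ± 4.03), which overlapped with *En2* (20.8 ± 7.61). The others were *Gbx1* (7.24 ± 1.02), *Dmbx1* (3.24 ± 0.23), *Lmx1b* (2.72 ± 0.49), *Otx1* (2.53 ± 0.42), *En1* (1.399 ± 1.41) and *Lmx1a* (0.45 ± 0.080), where neighbours from *Dmbx1* on overlapped. After treatment *En2* stood first at 79.2 ± 24.8 and apart from *Gbx2* (35.8 ± 13.5), followed by *Otx2* (27.4 ± 4.69) and *Otx1* (19.03 ± 6.02). *Gbx1* (10.6 ± 3.28), *Dmbx1* (9.14 ± 1.81), *En1* (8.99 ± 2.19) and *Lmx1b* (6.82 ± 1.01) overlapped from neighbour to neighbour, and *Lmx1a* was lowest at 3.12 ± 0.79. *En2* therefore had the highest mean per kb after treatment in both lines, but stood apart from *Gbx2* only in PRC1CPM cells. *Lmx1a* had the lowest mean in all 4 conditions. The place of *Otx2* depends on its row, since the shortest row, NM_144841, had 98.8, 42.4, 114 and 46.2 per kb in untreated and OHT-treated PRC1CKO and in untreated and OHT-treated PRC1CPM cells, the last of which is above *Gbx2*.

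**Figure D4:**
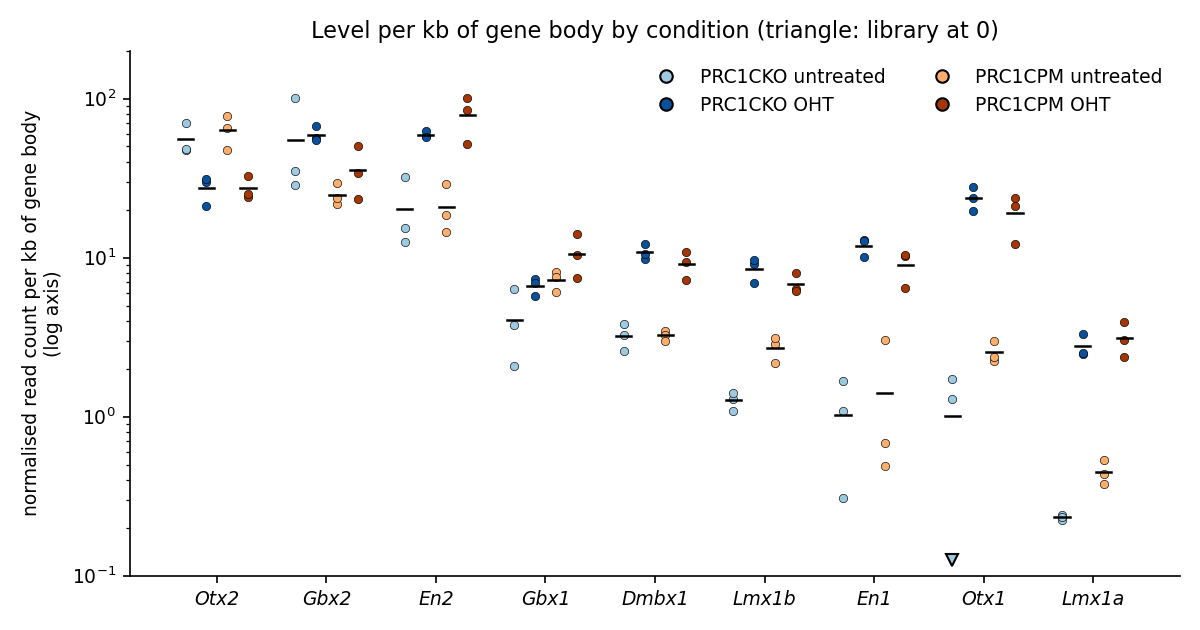
Normalised read count per kb of gene body (y axis, log axis) of each gene (x axis, in the order of untreated PRC1CKO cells) in the 12 libraries, coloured by condition, with a line at the mean and a triangle for the library with no *Otx1* read. *Otx2* drops from 55.4 to 27.5 per kb in PRC1CKO and from 63.8 to 27.4 in PRC1CPM cells, while *En2* rises to 59.4 and 79.2.

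The 18 nearest rows on each side of the 9 genes, 17 of them tested, show whether their surroundings moved with them. In PRC1CKO cells 2 were higher and 1 lower, and in PRC1CPM cells 3 were higher and none lower (limma; 16.5% and 13.1% of all rows were higher). Besides *C130021I20Rik*, *Rxrg*, which encodes a retinoid X receptor and lies 49935 bp from *Lmx1a*, rose (log2 fold change 2.62 and 1.92, limma adjusted p = 1.65e-06 and 0.000493). *Cnpy1*, which lies 33297 bp from *En2* and is known from the isthmus as an FGF signalling regulator, fell in PRC1CKO cells (-1.09, limma adjusted p = 0.00101) while *En2* rose, and had a log2 fold change of -0.51 in PRC1CPM cells (limma adjusted p = 0.234). *Asb18*, 21502 bp from *Gbx2*, was called in PRC1CPM cells (1.53, limma adjusted p = 0.0232) and had a value of 1.00 in PRC1CKO cells (limma adjusted p = 0.169). No other tested neighbour was called in either line, with *Ehbp1*, 4175 bp from *Otx1*, at 0.38 and 0.24.

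For each gene, the genes of the table with the most similar pattern were found as those with the smallest root mean square difference of the 4 condition means of log2(value + 1), each centred on its own mean. All points share the same 12 libraries. *Hmx1* (0.0755) and *Barx1* (0.135) were nearest to *Otx1*, and *Nr0b1* (0.0581) and *March11* (0.0616) to *Otx2*. *Pvrl4* (0.0336) and *Plekhg1* (0.0364) were nearest to *Gbx1*, *Kank4* (0.0593) and *Nfib* (0.0641) to *Gbx2*, *Cadps2* (0.0737) and *Dmgdh* (0.0865) to *En1*, and *Efcc1* (0.0357) and *4930523C07Rik* (0.0453) to *En2*. *Itga2* (0.0718) and *Cacna1c* (0.0755) were nearest to *Lmx1a*, *Cdkn2a* (0.032) and *Flrt2* (0.0609) to *Lmx1b*, and *Apba1* (0.0306) and *Nebl* (0.0389) to *Dmbx1*. *Hmx1* and *Barx1*, both homeobox genes, changed by 4.98 and 5.14 in PRC1CKO and by 2.92 and 2.83 in PRC1CPM cells (log2 fold changes). *Nr0b1*, an orphan nuclear receptor gene expressed in ESCs, changed by -1.06 and -1.08. That these fold changes lie near those of *Otx1* and *Otx2* follows from how the genes were chosen.

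Other genes of the midbrain-hindbrain region were described from lists. Beside the counts of these and later lists, 16.5% of all rows were called higher and 3.09% lower in PRC1CKO cells. In PRC1CPM cells these shares were 13.1% and 1.4%. Of 15 tested genes of the isthmic organiser and boundary, 7 rose and 2 fell in PRC1CKO cells (median log2 fold change 0.41) and 4 rose and none fell in PRC1CPM cells (median 0.45). The transcription factor genes *Pax2* (log2 fold change 3.24 and 1.91 in PRC1CKO and PRC1CPM cells), *Irx2* (3.01 and 2.02) and *Sp8* (2.01 and 2.30) rose in both lines. *Pax5* rose in PRC1CKO cells (2.84) and was not called in PRC1CPM cells (1.07, limma adjusted p = 0.0709). *Wnt1*, named after its values were seen, had no read in any of the 6 untreated libraries and 5.97 ± 1.97 and 9.27 ± 2.53 (SD, n = 3) normalised reads after treatment, under the limit for testing. *Fgf17* (-0.92) and *Cnpy1* fell in PRC1CKO cells, and *Fgf17* was at -0.70 in PRC1CPM cells (limma adjusted p = 0.0999). *Fgf8*, whose product is the inducing signal of the organiser and which was also named after its values were seen, was not called (0.41 and 0.55, limma adjusted p = 0.676 and 0.623).

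Of 11 tested genes of the floor plate and midbrain dopaminergic programme, 9 rose in PRC1CKO and 7 in PRC1CPM cells and none fell (medians 2.41 and 1.74). *Foxa1* (3.48 and 2.66), *Foxa2* (2.80 and 2.87), *Msx1* (3.16 and 1.94) and *Neurog2* (2.66 and 2.53), which act in ventral midbrain progenitors, rose in both lines. *Ferd3l* had no read in any library. Of 11 tested genes of hindbrain rhombomere identity, 7 rose in PRC1CKO and 9 in PRC1CPM cells and none fell (medians 2.49 and 2.36), with *Hoxb4* (3.90 and 2.16), *Hoxb3* (3.57 and 4.30), *Hoxa3* (2.91 and 3.09) and *Ptf1a* (2.90 and 2.36) named by size. Of 11 tested genes of the anterior forebrain and eye field, 9 rose in PRC1CKO and 8 in PRC1CPM cells (medians 3.92 and 2.08), with *Six3* (5.04 and 3.40) and *Nkx2-1* (5.04 and 2.16) in both lines and *Fezf2* in PRC1CKO cells (4.38) but not called in PRC1CPM cells (0.82, limma adjusted p = 0.679). Mean normalised read counts in untreated PRC1CKO cells were 0 for *Nkx2-1* and *Fezf2*, 0.513 for *Neurog2* and 1.08 for *Ptf1a*. The sizes of their changes therefore depend on the added 1. Of 10 genes of the roof plate and dorsal neural tube, 9 rose and 1, *Zic5*, fell in PRC1CKO cells, and 8 rose and *Zic5* fell in PRC1CPM cells (medians 2.49 and 1.60). *Pax3* (5.97 and 4.03), *Zic1* (5.35 and 4.29) and *Gdf7* (3.94 and 1.52) were called in both lines, and *Pax7* (3.74) in PRC1CKO cells (1.15, limma adjusted p = 0.0593, in PRC1CPM cells).

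**Figure D5:**
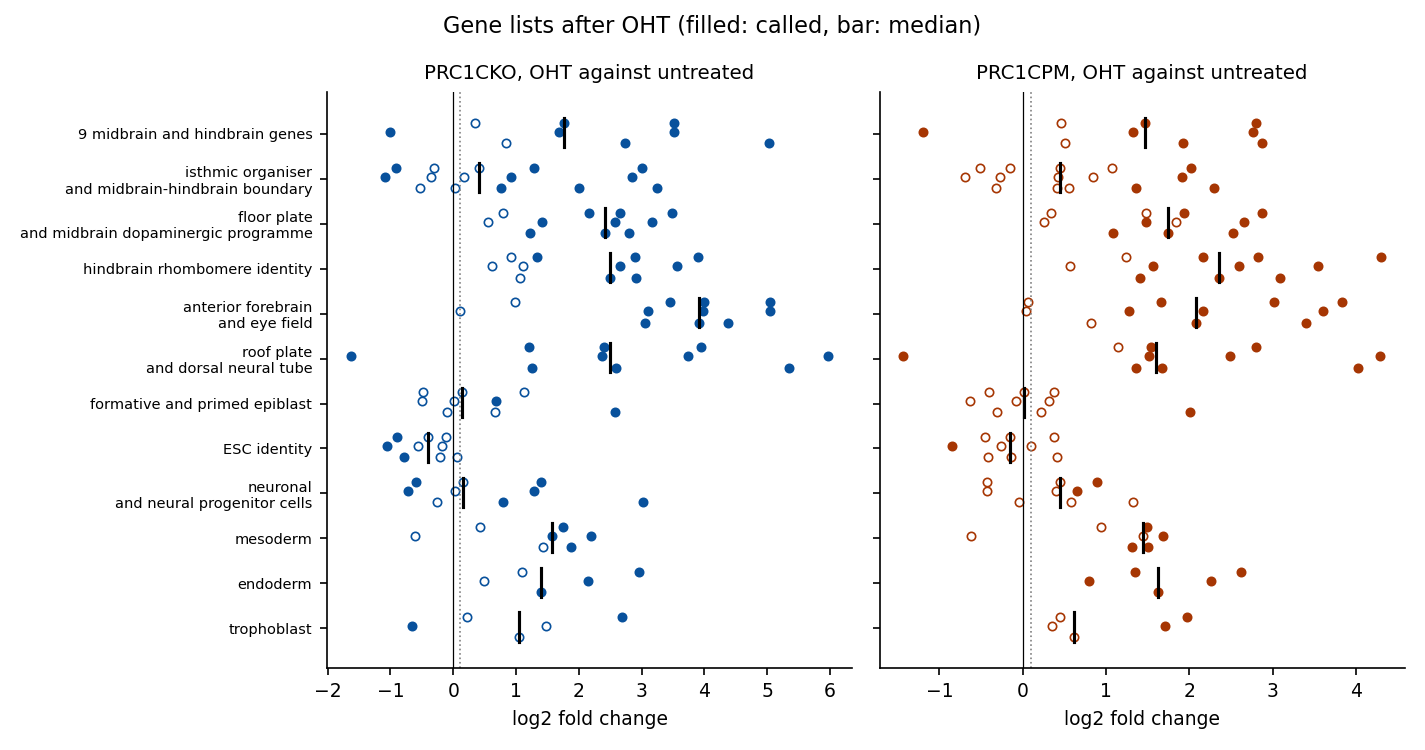
Log2 fold change after OHT treatment (x axis) of the tested genes of each list (y axis, 1 point per gene), filled where the gene was called, with a bar at the median of the list and a dotted line at the median of all rows tested. The medians of the 9 genes are 1.76 and 1.47, those of the forebrain list 3.92 and 2.08, and those of ESC identity -0.40 and -0.15.

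The labelled cell type was checked against ESC genes. *Pou5f1*, *Nanog*, *Sox2*, *Zfp42* and *Esrrb*, which define ESCs, had mean normalised read counts between 3130 and 11600 in each of the 4 conditions. Of 9 tested genes of ESC identity, 3 fell and none rose in PRC1CKO cells (median -0.40) and 1 fell in PRC1CPM cells (median -0.15). *Fgf4* fell in both lines (log2 fold change -1.06 and -0.85), and *Sox2* (-0.89) and *Utf1* (-0.79) fell in PRC1CKO cells and were not called in PRC1CPM cells (-0.46 and -0.41, limma adjusted p = 0.136 and 0.273). Their summed normalised read counts were 75640, 59000 and 60650 in untreated and 47270, 50700 and 55160 in OHT-treated PRC1CKO libraries. In PRC1CPM libraries the sums were 60690, 49470 and 52520 before and 56660, 38370 and 58030 after treatment, which overlap. Over all libraries *Esrrb* was the most abundant, with *Tfcp2l1* above it in untreated PRC1CKO cells. Of 9 tested genes of the formative and primed epiblast, 2 rose in PRC1CKO cells, *Sox3* (2.57) and *Dnmt3b* (0.68), and *Sox3* rose in PRC1CPM cells (2.01). *Dnmt3b* was at 0.013 in PRC1CPM cells (limma adjusted p = 0.988), none fell in either line, and the medians were 0.14 and 0.013. These counts are near the shares of all rows called higher (16.5% in PRC1CKO and 13.1% in PRC1CPM cells).

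Markers of other cell types moved beside the 9 genes, and their part in the results was not tested. Of 9 tested neuronal and neural progenitor genes, 4 rose and 2 fell in PRC1CKO cells (median 0.16) and 2 rose in PRC1CPM cells (median 0.45). *Nes* (1.28) rose in PRC1CKO cells and was not called in PRC1CPM cells (0.45, limma adjusted p = 0.355), and *Rbfox3* (1.39 and 0.90) and *Map2* (0.79 and 0.66) rose in both. *Tubb3* (-0.71) and *Stmn2* (-0.60) fell in PRC1CKO cells and were at -0.43 in both cases in PRC1CPM cells (limma adjusted p = 0.344 and 0.229). The neuronal sum, led by *Stmn2*, was 12790, 8054 and 8514 in untreated and 10070, 8013 and 10190 in OHT-treated PRC1CKO libraries, and 10750, 8504 and 8718 against 12170, 7541 and 9174 in PRC1CPM libraries, with overlap in both lines. Of 7 tested mesoderm genes, 4 rose in each line (medians 1.57 and 1.44): *Kdr* (2.19 and 1.69), *T* (1.88 and 1.51), *Pdgfra* (1.74 and 1.49) and *Eomes* (1.57 and 1.31). The mesoderm sum, led by *Pdgfra*, was 1032, 501 and 438 against 2316, 1715 and 1651 in PRC1CKO and 673.8, 378.8 and 498.8 against 1626, 913.1 and 1346 in PRC1CPM libraries.

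Of 5 tested endoderm genes, 3 rose in PRC1CKO and 5 in PRC1CPM cells (medians 1.39 and 1.63). *Gata6* (2.96 and 2.26), *Gata4* (2.14 and 1.63) and *Sox17* (1.39 and 1.35) rose in both lines and *Sox7* in PRC1CPM cells (2.62, with 1.09 and limma adjusted p = 0.0586 in PRC1CKO cells). Of the defining genes, *Ttr* and *Cer1* had no read in either PRC1CKO condition. In PRC1CPM cells *Ttr* had a mean normalised read count of 0 before and 1.95 after treatment, and *Cer1* 0.426 before and 0 after. *Afp* was at 0.497 and 1.16 in PRC1CKO and at 1.26 and 3.35 in PRC1CPM cells. The endoderm sum, led by *Dab2* over all libraries and by *Gata6* in OHT-treated PRC1CKO cells, was 1227, 715.7 and 432.1 against 2920, 2269 and 2178 in PRC1CKO and 581.8, 578.6 and 465 against 1617, 1108 and 1419 in PRC1CPM libraries. Of 5 tested trophoblast genes, 1 rose and 1 fell in PRC1CKO and 2 rose in PRC1CPM cells (medians 1.04 and 0.61). *Hand1* rose in both lines (2.68 and 1.97), *Cdx2* in PRC1CPM cells (1.71, with 1.04 and limma adjusted p = 0.22 in PRC1CKO cells), and *Tfap2c* fell in PRC1CKO cells (-0.66, with 0.36 and limma adjusted p = 0.378 in PRC1CPM cells). The trophoblast sum, led by *Tfap2c*, was 1628, 1705 and 1338 against 1314, 1135 and 1028 in PRC1CKO and 1109, 1110 and 1060 against 1850, 1239 and 1515 in PRC1CPM libraries.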

How the data were processed

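The authors removed reads on rDNA with Bowtie 2, aligned the others to mm10 and dm6 with STAR and Bowtie 2, kept unique reads, dropped duplicates (Sambamba) and summed what fell in the body of each of 20633 transcripts, introns included. Whether strand was used is not given in the sources used here. The deposited signal, a normalised read count, is that count divided by 1 size factor per library, from the *Drosophila* reads corrected by matched gDNA-seq. In every library 100% of the deposited values were whole multiples of 1 step within 0.02 of a read, which gave the reads. The authors' log2 fold changes and adjusted p-values in the same table, their list of genes less increased in PRC1CPM cells, and the 12 gDNA samples were not used.

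Log2(normalised read count + 1) was fitted, for rows where 3 or more libraries had 10 reads or more, with limma 3.58.1 (R 4.3.3), 4 condition means over 12 libraries, an intensity trend in the prior variance, and p-values adjusted by Benjamini-Hochberg over 16940 rows, since the values were not raw counts. On data simulated for PRC1CKO cells, 81 of 105 genes changed 2-fold (77.1%), 89 of 89 changed 4-fold and 4 of 15988 unchanged genes were called. The simulation gave all genes the same dispersion and added no error to the size factors. These rates therefore do not describe genes that vary more between libraries, such as *Gbx2* (176 ± 128 in untreated PRC1CKO cells, SD, n = 3). Alternatives were edgeR 4.0.16 and DESeq2 1.42.0 on the recovered reads, TMM, no gDNA-seq correction (a scale rebuilt with read totals from the study's supplementary table), other filters, pseudocounts and thresholds, and each library left out. On those reads edgeR called 2702 rows higher and 549 lower in PRC1CKO cells and 2253 and 245 in PRC1CPM cells. The text names the 9 genes, their nearest rows, *Ring1*, *Rnf2*, 5 ESC factors (*Pou5f1*, *Nanog*, *Sox2*, *Zfp42* and *Esrrb*), up to 4 genes of each of 11 lists with the largest change in PRC1CKO cells among those called in either line, and the 2 genes most like each of the 9. Others were named after their values were seen. Some genes that this rule names are not reported here. The genes and lists were chosen with earlier results of these data known. Positions count from 1, so 1 was added to each deposited start.

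Libraries with the same replicate number deviated from their group means together (mean r 0.205 over 18 pairs, -0.102 over 36 pairs with different numbers, across genes). Every pair exceeded 0.1 within PRC1CPM (0.255, 0.438 and 0.246), between untreated (0.22, 0.377 and 0.186) and between OHT-treated lines (0.225, 0.14 and 0.141), so that a block on the number is given there where it changes a call. Within PRC1CKO 1 pair was at 0.0988 and the others at 0.179 and 0.148. Blocked values that use both conditions of this line are given with that limit.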

Additional observations from a re-analysis of the deposited data

How the results depend on the processing

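The 14 called changes after OHT treatment (7 genes in 2 lines) kept direction and call in 335 of 336 refits, the exception being *Otx2* in PRC1CKO cells without OHT replicate 2. Many of these refits, such as those without a library of the other line or with another filter, leave the fold change as it is. In those only the call could move. Without single libraries, the number of the 9 genes called lower in PRC1CKO cells ranged from 0 to 1 and the number called higher in untreated PRC1CPM cells from 0 to 3. The latter, 2 in the main comparison, was 1 with edgeR, no gDNA-seq correction, no filter, a pseudocount of 0.1 or 8 or no mean-variance trend, 0 at an adjusted p under 0.01 and 4 with the replicate block. The number called lower there was 1 with TMM and 1 with the block. With the replicate block, 1 gene was higher and 1 lower between OHT-treated lines, and *Gbx1* also rose in PRC1CKO cells (0.83, limma adjusted p = 0.000478). The block called 2 interactions, *Otx1* (-2.22, limma adjusted p = 0.000863) and *Lmx1b* (-1.41, limma adjusted p = 1.28e-05), against 1 with DESeq2. The *Gbx1* and interaction values use PRC1CKO libraries, whose same-number pairs were at r 0.179, 0.0988 and 0.148. Over all rows, the block called 3435 higher and 823 lower in PRC1CKO cells, 461 lower in PRC1CPM cells (237 without) and 78 and 246 interactions. Without single libraries, rows higher in PRC1CPM cells ranged from 1435 (without OHT replicate 1) to 2547 and rows lower from 121 (without OHT replicate 2) to 339. Between untreated lines, rows higher ranged from 170 (without PRC1CKO replicate 3) to 1491 and rows lower from 46 (without PRC1CPM replicate 3) to 105. The causes were not tested.

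Signs that turned were all of changes not called. Without the gDNA-seq correction, the difference between untreated lines was -0.084 for *Otx2*, -0.0051 for *En1*, -0.17 for *En2* and -0.25 for *Dmbx1*, and the interaction 0.25 for *Otx2*, 0.12 for *Gbx1* and 0.16 for *Dmbx1*. That scale moved the median of all rows from 0.10 to 0.39 in PRC1CPM cells, with 3428 rows higher and 68 lower, and from 0.12 to -0.037 in PRC1CKO cells, with 2132 and 666. With TMM, the untreated difference was -0.0058 for *En2* and -0.0895 for *Dmbx1*. *Otx2* between OHT-treated lines was -0.0090 with edgeR, -0.0093 with DESeq2 and -0.0999 with TMM. Leaving out single libraries gave ranges of -0.0065 to 0.89 for *Gbx2* in PRC1CKO cells, -0.46 to 0.67 for *En1*, -0.17 to 0.51 for *En2* and -0.12 to 0.15 for *Dmbx1* between untreated lines, and -0.18 to 0.11 for *Otx2* and -0.031 to 0.34 for *Lmx1a* between OHT-treated lines. For the interaction they were -0.71 to 0.080 for *Gbx1*, -0.43 to 0.47 for *Gbx2*, -1.09 to 0.034 for *En1* and -0.14 to 0.53 for *En2*. The changes of the paralogue ratios kept their sign with a pseudocount of 0.1. Another scale bears on them through the pseudocount alone, so TMM and no gDNA-seq correction are no check of them. Without single libraries, an alternative added after seeing the data, they also kept it, except *Gbx1* to *Gbx2* in PRC1CPM cells (-0.194 to 0.317). With 0 to 22 reads in untreated libraries, *Otx1* and *En1* have large counting error, and their fold changes depend on the pseudocount.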
